A study of Mus musculus with 4 samples.

Results

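The interferon regulatory factor (Irf) genes were followed in mouse leukaemia cells that were wild type or carried a conditional knockout of Ybx1. The rule named 7 symbols, of which Irf1, Irf2, Irf3, Irf5, Irf7 and Irf9 had a row among the 28141 genes of the table. These 6 genes are described below, and Irf8 was not analysed here. All 6 passed the filter on low values, as did 15527 genes in all. Poly(A) RNA was sequenced from leukaemia cells of C57BL/6 mouse bone marrow. The labels call the cells LSCs, and the series title ties them to stem cells of chronic myeloid leukaemia. There were 2 libraries of wild-type cells (WT) and 2 of cells labelled YBX1cKO, a conditional knockout of Ybx1 (cKO), which encodes an RNA-binding and DNA-binding Y-box protein. The sources used here do not give the oncogene behind the leukaemia, the Cre that deleted Ybx1, the age and sex of the mice or whether mice were pooled. Nothing said that the replicates came from separate mice, so p-values speak only of the spread among these samples, possibly a technical one.

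IRF proteins are transcription factors that share a DNA-binding domain and read interferon-stimulated response elements. When sensors detect foreign nucleic acid, the kinases TBK1 and IKKε phosphorylate IRF3 and IRF7, which then switch on the interferon genes; IRF5 acts downstream of Toll-like receptors on inflammatory cytokine genes. Secreted type I interferon signals back through its receptor, JAK kinases and STAT proteins, and IRF9 joins STAT proteins, STAT2 among them, in the complex ISGF3, whose targets include Irf7 itself. IRF1 is induced by interferon gamma, and IRF2 can compete with it for the same sites.

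Values are log2 levels, obtained by multiplying the deposited scores by 0.693, a factor that rests on replicate noise, since no source used here states the scale. If the scores were plain log2, each log2 fold change would be 1.44 times as large, with the p-values as they are. The slope of the replicate noise gave 1.62 (WT) and 1.60 (cKO) score units per doubling instead of 1.44. Under that slope each log2 fold change would be smaller. The table held no counts, so depth is unknown. Back-transformed levels summed to 11.2 and 11.1 times 1000000 in the WT libraries and to 12.1 times 1000000 in both cKO libraries. Ybx1 itself stood at a log2 level of 9.31 and 9.41 in WT and of 8.19 and 8.13 in cKO, so that transcript remained in the libraries labelled cKO (limma adjusted p = 1.1e-11 for a log2 fold change of -1.20, SE 0.08).

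Of the 6 Irf genes, Irf7, Irf5 and Irf9 fell in cKO, and Irf1, Irf2 and Irf3 did not pass the test. Irf7 was by far the most changed, at 5.82-fold lower. The other falls were 1.57-fold for Irf5 and 1.48-fold for Irf9. None of the 6 rose at a limma adjusted p under 0.05, or at an unadjusted p under 0.05 (count 0). Irf2 joined Irf7, Irf5 and Irf9 as lower at an unadjusted p under 0.05, which made 4. Shares of all tested genes at an unadjusted p were not counted, so these unadjusted counts have no background here. At the adjusted threshold 37.4% of all genes tested changed, with 17.8% of the tested genes lower and 19.5% higher, beside 3 of 6 lower here. The median log2 fold change was -0.36 over the 6 genes and 0.00255 over all tested genes. Both cKO libraries lay below both WT libraries for 5 of the 6 genes, where 32.4% of all tested genes did so, and above them for 0, where 32.7% did; over both directions 65.1% of tested genes had groups that did not overlap. Since the genes were few and chosen with earlier results known, these counts describe the 6 genes only.

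**Figure D1:**
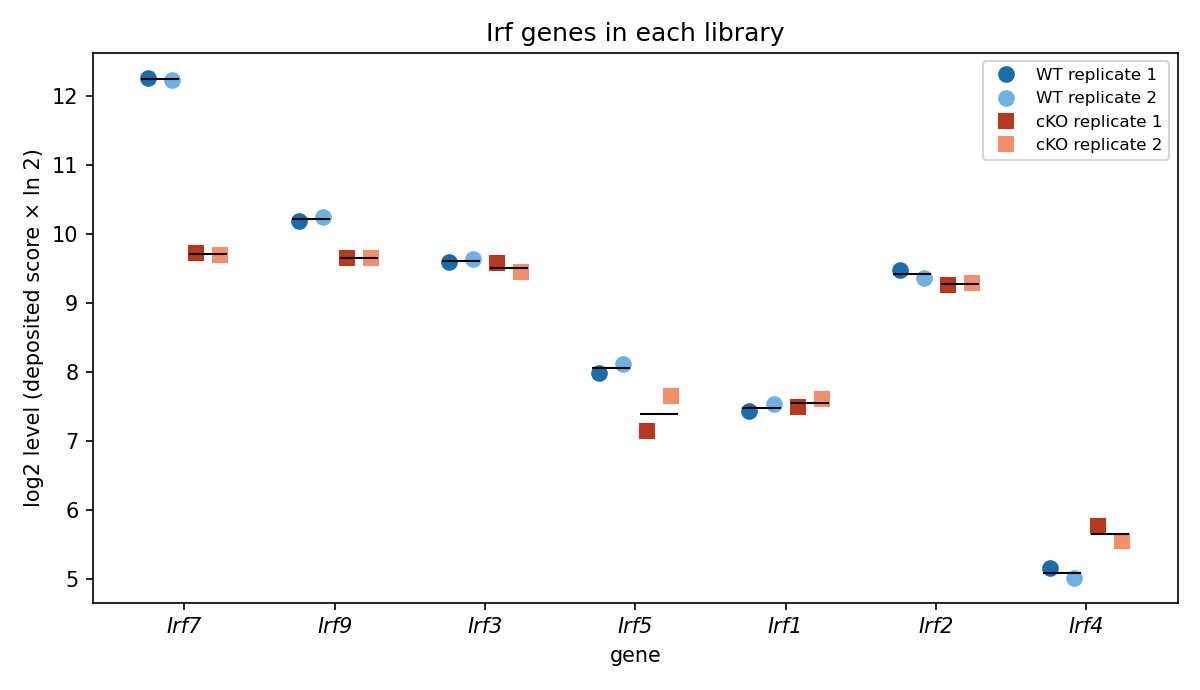
Log2 level (deposited score times ln 2) of 7 Irf genes in each of the 4 libraries, with circles for WT, squares for cKO and a short black line at each group's mean. Irf7 drops from about 12.25 to 9.71, Irf9 and Irf5 drop by smaller steps, and the WT and cKO points of Irf1 interleave.

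Irf7, the amplifier of type I interferon production, had a log2 level of 12.27 and 12.24 in the WT libraries and of 9.73 and 9.70 in the cKO libraries. The groups were far apart, and the replicates of each group differed by 0.03. The log2 fold change was -2.54 (SE 0.04, adjusted p = 1.9e-23 by limma), from 12.25 ± 0.02 (SD, n = 2) to 9.71 ± 0.02 (SD, n = 2). With one prior variance for genes of all levels the limma adjusted p was 0.032. Only 7 of the 15527 tested genes had a more negative log2 fold change, Irf7 being number 8 in that order. Per length, Irf7 stood above 97.0% of the tested genes in WT and above 81.6% in cKO. Leaving out any one library gave log2 fold changes from -2.56 to -2.53. Irf7 lies on the minus strand of chromosome 7 from 141262706 to 141266481 in GRCm38, and its 3′ end overlaps that of Phrf1 on the other strand. Phrf1 moved the other way, with a log2 fold change of 0.20 (SE 0.06, limma adjusted p = 0.0069).

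Irf9 supplies the DNA-binding part of ISGF3. Its log2 level was 10.20 and 10.26 in WT and 9.66 in both cKO libraries, so the groups did not overlap. The log2 fold change was -0.57 (SE 0.06, adjusted p = 9e-09 by limma), and it lay between -0.60 and -0.54 when any one library was left out. With one prior variance for genes of all levels the limma adjusted p was 0.036. Irf9 is on the plus strand of chromosome 14 from 55603571 to 55610030. Its first annotated bases overlap the end of Rnf31, a gene on the same strand for a subunit of the linear ubiquitin ligase, and Rnf31 also fell (log2 fold change -0.43 ± 0.10 SE, adjusted p = 0.00095 by limma). The sources used here do not say how reads in the shared stretch were assigned.

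Irf5 had a log2 level of 7.99 and 8.12 in WT, and of 7.15 in cKO replicate 1 and 7.65 in cKO replicate 2. Both cKO libraries were below both WT libraries, but they differed from each other by more than cKO replicate 2 differed from either WT library. The log2 fold change was -0.65 (SE 0.14, adjusted p = 0.00036 by limma), from 8.06 ± 0.10 (SD, n = 2) to 7.40 ± 0.35 (SD, n = 2). Without cKO replicate 1 it was -0.40, and without cKO replicate 2 it was -0.91. The call was lost with one prior variance for genes of all levels (adjusted p = 0.13) and with no filter on low values (adjusted p = 0.10). Irf5 lies on chromosome 6 from 29526625 to 29541871, where its last part overlaps Tnpo3 on the other strand, a gene with a log2 fold change of -0.04 (SE 0.06, limma adjusted p = 0.67).

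The other three members gave small differences. Irf3, the partner of Irf7 that is present before any stimulus, had a log2 level of 9.60 and 9.64 in WT and of 9.58 and 9.45 in cKO (log2 fold change -0.10 ± 0.06 SE, adjusted p = 0.27 by limma). The lower cKO value set this difference, and without cKO replicate 2 it was -0.03. Irf2 stood at 9.48 and 9.37 in WT, against 9.27 and 9.29 in cKO (log2 fold change -0.15, SE 0.07, limma adjusted p = 0.098), and its nearest WT and cKO libraries were closer than its WT replicates. For Irf1 the levels were 7.44 and 7.54 in WT and 7.50 and 7.62 in cKO, which interleaved (log2 fold change 0.07, SE 0.12, limma adjusted p = 0.72). Irf1 lies on chromosome 11 from 53770014 to 53778374, Irf2 on chromosome 8 from 46739732 to 46847458 and Irf3 on chromosome 7 from 44997648 to 45002848. Bcl2l12 overlaps the start of Irf3 on the other strand and had a log2 fold change of -0.23 (SE 0.15, limma adjusted p = 0.24).

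Irf4, a lymphoid and dendritic cell factor of the family that the rule did not name, had a log2 level of 5.17 and 5.03 in WT and of 5.77 and 5.55 in cKO. Its groups did not overlap, but the log2 fold change of 0.56 (SE 0.25) missed the threshold (limma adjusted p = 0.079), except under a median shift of the libraries (0.63, adjusted p = 0.048).

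Levels were next compared between the genes, per 1000000 of the library sum and per kilobase of exon. In WT the order was Irf7 (117.0 and 115.6), Irf3 (20.2 and 20.9), Irf9 (19.5 and 20.5), Irf2 (8.64 and 8.10), Irf5 (7.84 and 8.67), Irf1 (3.90 and 4.23) and Irf4 (0.66 and 0.60). Irf3 and Irf9 overlapped, as did Irf2 and Irf5, so neither pair could be ordered beyond its spread. In cKO the order of the means was the same, but Irf7 (18.5 and 18.1) now stood beside Irf3 (18.4 and 16.8), and these overlapped. Irf9 followed with 12.4 and 12.3, Irf2 with 6.89 and 6.99, Irf5 with 4.04 and 5.71 and Irf1 with 3.75 and 4.07. Irf2 and Irf5 no longer overlapped, whereas Irf5 in cKO replicate 1 fell within the range of Irf1.

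Summed over these 7 Irf genes, the level per 1000000 and kilobase was 177.7 and 178.6 in WT and 64.9 and 64.8 in cKO. Irf7 made up 65.8% and 64.7% of that sum in WT, and 28.5% and 27.95% in cKO. Without Irf7 the sum was 60.7 and 63.0 in WT and 46.4 and 46.7 in cKO, so most of the drop in the family sum was Irf7. Irf3 took 11.3% and 11.7% of the sum in WT and 28.4% and 25.9% in cKO, though its own log2 level did not pass the test. Part of the fall per 1000000 is the larger library sum in cKO, which lowers every share there.

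**Figure D2:**
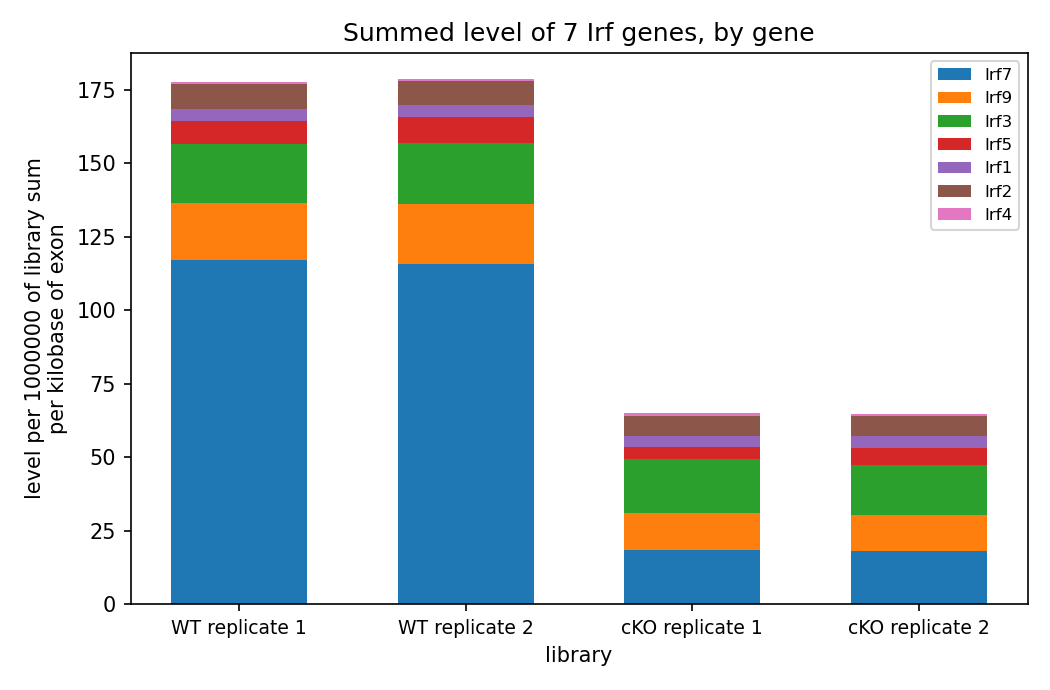
Level per 1000000 of the library sum and per kilobase of exon, stacked over 7 Irf genes, for each of the 4 libraries. The WT bars reach 177.7 and 178.6 with Irf7 as the bulk, and the cKO bars reach 64.9 and 64.8 with Irf7 and Irf3 about equal.

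The differences between members within one library, which no shift of a whole library can move, were as follows. The log2 level of Irf7 minus that of Irf3 was 2.67 and 2.60 in WT and 0.14 and 0.24 in cKO. Irf7 minus Irf9 was 2.07 and 1.98 in WT and 0.07 and 0.04 in cKO, and Irf9 minus Irf3 was 0.60 and 0.62 in WT and 0.07 and 0.20 in cKO. For these 3 pairs the groups were apart by more than the spread of their replicates. Irf5 minus Irf3 was -1.61 and -1.51 in WT and -2.43 and -1.80 in cKO, where the cKO replicates were further from each other than the groups were at their nearest. An exact two-sided permutation test of such a difference gave p = 0.333 for all 4 pairs, the smallest value that 2 against 2 libraries allow.

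The steps upstream of the IRF proteins went in both directions. Of 18 tested nucleic acid sensors and their adaptors 7 (38.9%) fell and 5 rose, with a median log2 fold change of 0.07. Over all tested genes 17.8% fell and 19.5% rose. The cytosolic RNA sensor gene Ddx58, which encodes RIG-I, stood at a log2 level of 10.66 in both WT libraries and at 9.95 and 9.98 in cKO (log2 fold change -0.70, SE 0.05). Its relative Dhx58 had -0.98 (SE 0.09) and the Z-form nucleic acid sensor gene Zbp1 had -0.86 (SE 0.07). In the opposite direction, Sting1, the adaptor for cytosolic DNA, rose from 9.40 and 9.30 to 10.36 and 10.27 (log2 fold change 0.96, SE 0.06). The number of sensors that fell was 4 without WT replicate 2. The number that rose was 3 without WT replicate 2, without cKO replicate 1 or under quantile normalization.

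Among 13 kinases and adaptors linked to IRF phosphorylation 4 rose and 1 fell (median 0.11). Over all tested genes 19.5% rose and 17.8% fell. Tbk1, the kinase of IRF3 and IRF7, had a log2 level of 10.24 and 10.20 in WT and of 10.60 and 10.57 in cKO, a rise of 0.36 (SE 0.05, limma adjusted p = 1.4e-06). Irak4, the first kinase after MyD88, rose by 0.91 (SE 0.05) and Chuk, which encodes IKKα, by 0.55 (SE 0.07). The call of Tbk1 was lost with one prior variance for genes of all levels (adjusted p = 0.056). The one that fell, Tax1bp1, had a log2 fold change of only -0.08 (SE 0.02), and its call was lost under a median shift (-0.02, adjusted p = 0.42). Of the 20 listed interferon genes 11 had a row, and 9 of these, Ifnb1 among them, were under a log2 level of 0 in all 4 libraries. Ifna4 stood at 0.93 and 0.98 in WT, against -0.83 and -0.86 in cKO. It passed the filter on low values only through the WT libraries, so no test of it is given, and reads of the near-identical Ifna genes could be split between them.

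In the receptor step, Ifnar1 and Ifnar2, the chains of the type I interferon receptor, did not pass. Ifnar1 stood at a log2 level of 9.46 and 9.40 in WT and of 9.65 and 9.45 in cKO, and Ifnar2 at 8.66 and 8.85 in WT and 8.59 and 8.85 in cKO, so both genes overlapped between groups. Ifnar1 did pass under a median shift (0.18, adjusted p = 0.039), as it did when cKO replicate 2 was left out (0.22, adjusted p = 0.014). Stat2, which encodes a partner of IRF9 in ISGF3, fell as Irf9 did. Stat2 stood at 10.84 and 10.86 in WT, against 10.20 and 10.33 in cKO (log2 fold change -0.59, SE 0.05). By contrast Stat3 rose by 0.24 (SE 0.03) and Ifngr2, a chain of the interferon gamma receptor, by 0.55 (SE 0.04). Il10rb, a receptor chain shared with interferon lambda, rose by 0.38 (SE 0.08). The calls of Stat3 (adjusted p = 0.11) and Il10rb (adjusted p = 0.079) were lost with one prior variance for genes of all levels. Of the 10 receptor, JAK and STAT genes counted here 2 fell and 5 rose (median 0.16). The share that fell, 20%, lay near the 17.8% of all tested genes, and 19.5% of all tested genes rose.

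Genes that restrain interferon and IRF signalling also split. Of 13 tested 8 (61.5%) fell and 4 rose (median -0.35), where 17.8% of all tested genes fell and 19.5% rose. Usp18, which blocks the interferon receptor and is itself a target of ISGF3, stood at a log2 level of 10.57 and 10.67 in WT, against 9.47 and 9.59 in cKO (log2 fold change -1.09, SE 0.06). Trim30a had -0.94 (SE 0.07), and Rbck1, which encodes a partner of RNF31 in the linear ubiquitin ligase, had -0.82 (SE 0.05). Ptpn6, the gene of the phosphatase SHP-1, had -0.40 (SE 0.04), a call lost with one prior variance for genes of all levels (adjusted p = 0.057).

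Most targets of ISGF3 fell. Of 40 tested 34 (85.0%) fell and 1, Ifit2, rose, where 17.8% of all tested genes fell and 19.5% rose. Both cKO libraries lay below both WT libraries for 37 of the 40, where 32.4% of all tested genes did so. The median log2 fold change was -0.68, against 0.00255 over all tested genes. Rtp4 stood at a log2 level of 9.45 in both WT libraries and at 7.66 and 7.30 in cKO (log2 fold change -1.97, SE 0.10), which is less than the fall of Irf7. Oasl1, which encodes an OAS-like protein known in mice to restrain translation of Irf7 mRNA, went from 11.14 and 11.18 to 9.48 and 9.31 (log2 fold change -1.77, SE 0.06). Isg15, the ubiquitin-like modifier, went from 9.17 and 9.10 to 7.59 and 7.71 (log2 fold change -1.48, SE 0.09), and the antiviral genes Oas3 and Ifit1 had -1.38 (SE 0.05) and -1.32 (SE 0.05). The direction of this group in these libraries was known when the list was written, so it is not independent evidence. Ifit2, named after its values were seen, stood at 9.30 and 9.22 in WT, against 9.99 and 9.95 in cKO.

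Targets usually assigned to IRF1 and IRF5 were counted in the same way. Over all tested genes 17.8% fell and 19.5% rose. Of 28 tested IRF1 targets 12 (42.9%) fell and 4 rose (median -0.26), while Irf1 itself did not pass. The number that rose was 2 without WT replicate 2 or without cKO replicate 1. Gbp7, a guanylate-binding protein gene, had a log2 fold change of -0.91 (SE 0.05), the immunoproteasome gene Psmb9 -0.83 (SE 0.06), the autophagy GTPase gene Irgm1 -0.68 (SE 0.05) and the peptide transporter gene Tap1 -0.58 (SE 0.05). Several genes of this list are also known targets of ISGF3. Of 8 tested cytokine genes linked to IRF5, 6 fell and 0 rose at a limma adjusted p under 0.05, and 0 rose at an unadjusted p under 0.05 (median -0.90). No share of all tested genes was counted at an unadjusted p. Ccl5, a chemokine for T cells and monocytes, stood at 7.70 and 7.76 in WT, against 4.14 and 4.98 in cKO (log2 fold change -3.18, SE 0.23). Il6 had -1.39 (SE 0.16), Ccl3 -0.91 (SE 0.04) and Ccl4 -0.31 (SE 0.05), where the call of Ccl4 was lost with one prior variance for genes of all levels (adjusted p = 0.074).

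**Figure D3:**
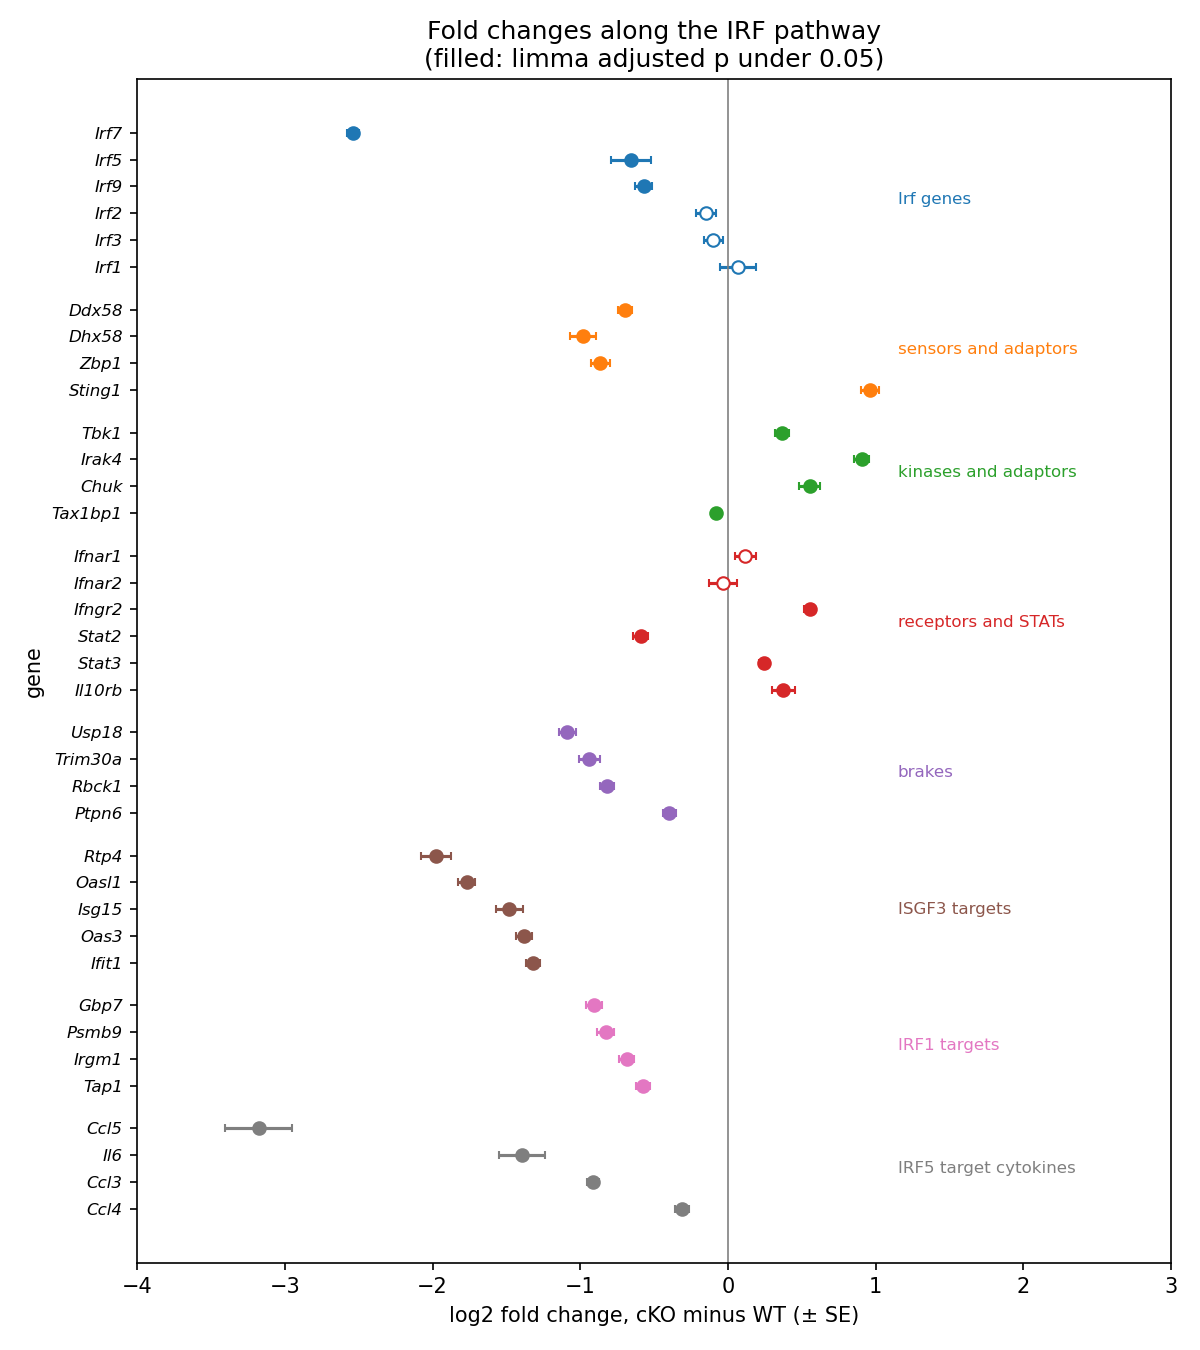
Log2 fold change, cKO minus WT, with its SE from limma, for 6 Irf genes and named genes of the pathway grouped by role; filled points passed an adjusted p of 0.05 and open points did not. Irf7 at -2.54 lies left of all plotted genes but Ccl5 at -3.18, and the kinase genes Tbk1, Irak4 and Chuk lie right of 0.

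Of 27 tested partners and targets of IRF8, 8 rose and 5 fell (median 0.02), where 19.5% of all tested genes rose. IRF8 itself was not analysed here. The share that fell, 18.5%, lay near the 17.8% of all tested genes, and the number that fell was 3 without WT replicate 1, WT replicate 2 or cKO replicate 2. Spi1, which encodes its partner PU.1, rose from a log2 level of 9.87 and 9.86 to 10.39 and 10.40 (log2 fold change 0.53, SE 0.05). Cst3, the gene of cystatin C, rose by 0.49 (SE 0.03) and Ctsc, the gene of cathepsin C, by 0.37 (SE 0.03), a call that was lost with one prior variance for genes of all levels (adjusted p = 0.058). Myc and Bcl2, which IRF8 is known to restrain directly or indirectly in myeloid cells, had -0.86 (SE 0.03) and -0.71 (SE 0.04). Of the 3 genes for IRF2-binding proteins, which act as corepressors, Irf2bp1 fell with a log2 fold change of -1.07 (SE 0.19, limma adjusted p = 4.6e-05), and Irf2bp2 and Irf2bpl did not pass. The call of Irf2bp1 was lost with one prior variance for genes of all levels (adjusted p = 0.052).

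**Figure D4:**
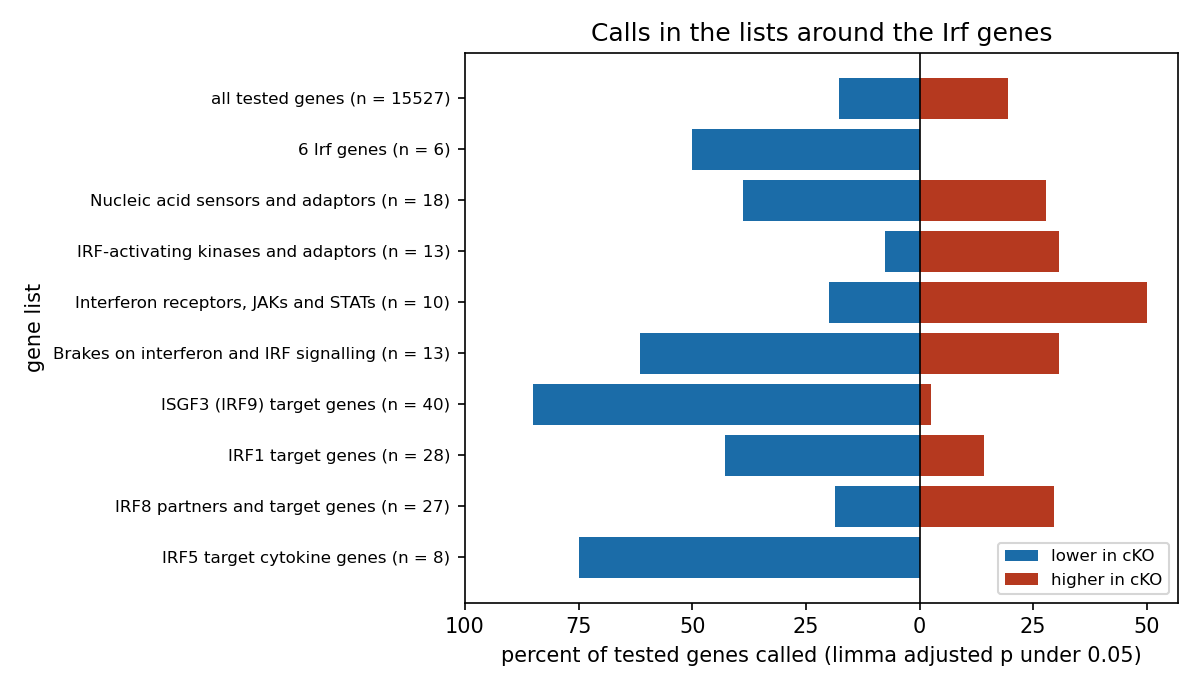
Percent of the tested genes of each list called lower (left of 0) and higher (right of 0) in cKO at a limma adjusted p under 0.05, with all 15527 tested genes and the 6 Irf genes on top. For all tested genes the bars reach 17.8% and 19.5%; the ISGF3 targets reach 85.0% lower.

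The genes most like Irf7 over the 4 libraries were Gm10719, Iqgap3 and Apol9b, by the distance between log2 levels centred on each gene's mean (0.17, 0.36 and 0.36 units) among 8959 other genes whose mean over the 4 libraries was 5 or more per 1000000. Iqgap3 met that floor through WT, with 8.15 and 8.68 per 1000000 there against 1.78 and 1.58 in cKO. With 4 libraries this likeness is little more than a similar fold change, and reads of Gm10719, a predicted gene, and of Apol9b, which has a near-identical copy in Apol9a, could be shared with other copies.

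Cell markers were counted in the same way, where 17.8% of all tested genes fell and 19.5% rose. In bulk RNA fewer cells of a type and less RNA per cell cannot be told apart. Plasmacytoid dendritic cells are known for high Irf7. Of 15 listed markers of these cells 8 had a row, all tested, of which 5 fell and 1 rose (median -0.53). With no filter 2 fell and 0 rose, as with one prior variance for genes of all levels. Fewer fell without WT replicate 1 or without WT replicate 2. The rise was lost without any one of WT replicate 1, WT replicate 2 and cKO replicate 1. The summed level of these 8 markers was 121.6 and 123.2 per 1000000 in WT and 83.1 and 77.2 in cKO. Irf7 alone had 442 and 436 in WT and 70.0 and 68.4 in cKO. Most of that sum was Bst2 and Tcf4; Bst2 is also an ISGF3 target, and Siglech had no row here. None of the 8 was under a log2 level of 0 in all libraries. Of 16 listed monocyte and macrophage markers 6 had no row and 9 were tested, of which 5 rose and 1 fell. The sum of those with a row was from 6662 to 6774 in WT and from 10594 to 10628 in cKO. The fall was lost without WT replicate 2 and with no filter on low values. Of 14 listed mature neutrophil markers 8 had no row, S100a8, S100a9 and Ly6g among them. Of the 6 tested 5 rose and 1 fell, with a sum from 450.5 to 483.7 in WT and from 1214 to 1220.1 in cKO. The fall was lost without WT replicate 2 or cKO replicate 1. It was also lost under a median shift, with no filter and with one prior variance for genes of all levels. Of 14 listed markers of conventional dendritic cells 8 had no row. Of the 6 tested 1 rose and 1 (16.7%) fell, near the share of all tested genes. Their summed level was 128.7 and 131.8 per 1000000 in WT and 184.3 and 186.2 in cKO. The number that fell moved when cKO replicate 1 was left out. Both tested T and NK cell markers fell, Lat by 0.55 and Gzmb by 1.44 on the log2 scale, while 15 of the 17 listed had no row. Of 2 tested B cell markers, Cd79b passed as higher (log2 fold change 0.26), but lost its call without WT replicate 1 (adjusted p = 0.27), WT replicate 2 (adjusted p = 0.064) or cKO replicate 1 (adjusted p = 0.20), with no filter and with one prior variance for genes of all levels. Of the erythroid markers 3 of 5 fell (0 with one prior variance for genes of all levels). Of the stromal and endothelial markers 1 of 7 (14.3%), Pecam1, fell, near the share of all tested genes. The summed level of the 9 with a row was nonetheless lower in cKO. It was 450.4 and 471.3 per 1000000 in WT and 232.5 and 240.1 in cKO. No row was found for 9 of 11 listed B cell markers and 8 of 13 listed erythroid markers. The part of these cell types in the falls of Irf7, Irf9 and Irf5 was not tested.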

How the data were processed

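Trizol extraction, oligo dT selection and random-primed libraries are described per the labels' protocols. The submitters' processing notes name CASAVA, HISAT2 2.1.0, featureCounts, DESeq2 and the build GRCm38 without saying what each did. The authors deposited 1 score per gene and library on a log scale of unstated base, from -3.19 to 27.9. All 4 value columns were used (0 left out). The scale was judged from replicate noise in 1-unit bins from 5 to 16. Its median over bins was 1.10 (WT) and 1.31 (cKO) times Poisson noise if the scores are log2 levels times 1.44. It was 4.83 and 5.90 times if they are plain log2. Under 1.44 the bins ran from 0.87 to 1.19 in WT and from 1.15 to 1.45 in cKO. The slope over the bins gave 1.62 (WT) and 1.60 (cKO) units per doubling. Setting noise against Poisson noise treats back-transformed levels as reads, an assumption, so no counting interval is given.

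The test was limma 3.58.1 in R 4.3.3 (variance trend, two-sided, Benjamini-Hochberg over all tested genes, threshold 0.05), on genes scoring 1 or more in 2 or more libraries. Fold changes are cKO minus WT. Exon lengths and positions are from GENCODE M21. The test was also run on simulated data whose noise depended on the level alone. That run could not show how the test behaves when genes of like level differ in noise. Python 3.11.15, pandas 2.3.3, numpy 2.4.6 and matplotlib 3.10.9 made tables and plots. The members and 19 lists (297 genes, 215 with a row, 202 tested) were chosen with earlier results of these data known, and no list was given a set test. Named genes are Ybx1, the Irf genes, 7 pathway genes, up to 4 called genes of each list with the smallest p-values, and the 3 genes most like Irf7. Some single genes are not reported here and were left out of the lists. Whether counting used strand was not stated, so overlapping genes may share reads. Alternatives covered filters, priors, scalings, thresholds, a replicate block and leaving out each library.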

Additional observations from a re-analysis of the deposited data

How the results depend on the processing

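The falls of Irf7 and Irf9 kept their call under all 14 alternatives, with log2 fold changes from -3.67 to -2.48 and from -0.82 to -0.51. The lowest came in each case from reading the scores as plain log2. With one prior variance for all levels the limma adjusted p was 0.032 for Irf7, 0.036 for Irf9 and 0.032 for Ybx1. The far smaller values of the main test thus rest on a prior variance that follows the level. Irf5 lost its call with no filter and with one prior variance for all levels, so 2 members were called lower there; Irf1 and Irf3 gained none, and Irf2 gained one at a threshold of 0.10 alone. The single prior variance called 2267 genes, 1177 higher and 1090 lower, in place of 5803 (3035 and 2768), of which 2080 were shared, and 65 list genes in place of 131; 15 of 57 called list genes named by the rule lost their call, Tbk1 (adjusted p = 0.056) among them. Under it 22 ISGF3 targets, 5 IRF1 targets, 3 IRF5 targets and 2 IRF8 partners or targets fell. So did 5 sensors or their adaptors, 4 brakes and 1 receptor-list gene. Those that rose were 3 IRF8 partners or targets, 2 kinases or adaptors and 2 sensors or their adaptors. A rise was also called for 1 receptor-list gene, 1 brake, 1 IRF1 target and 1 ISGF3 target. Leaving out one library gave from 4662 to 5803 calls, with 3 members lower each time; the lone sample left is then assumed to vary like the other group. Ifnar2, not called, changed sign under a median shift (0.029), under quantile normalization (0.0010) and without single libraries (from -0.16 to 0.10). The cause of these changes was not tested. The replicate numbers share only a number: deviations of same-numbered libraries correlated at 0.013, and a replicate block gave 6026 calls with 3 members lower. Depth is unknown, which leaves the precision of the low gene Ifna4 unstated.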
